A study of Homo sapiens with 28 samples.

Results

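The 4 genes described here make cell-surface enzymes and transporters that take part in acid handling. They are CA9 and CA12, which encode membrane-bound carbonic anhydrases, and SLC16A1 and SLC16A3, which encode the monocarboxylate transporters MCT1 and MCT4. They were looked up by symbol in RefSeq genes (GRCh38.p14), and all 4 were found among 19817 protein-coding genes on chromosomes 1 to 22 and X. A peak was counted for a gene when it overlapped by at least 1 bp the gene span with 5 kb added on each side, here called the window.

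The data are chromatin immunoprecipitation sequencing (ChIP-seq) peak lists from the established cell line T47D, derived from a luminal breast cancer. ZHX2 (a zinc finger and homeobox protein), CTCF (a DNA-binding protein found at loop anchors) and H3K27ac (histone H3 acetylated at lysine 27, a mark of active promoters and enhancers) were mapped in hypoxia and in normoxia. Flag-tagged ZHX2 was mapped in hypoxia alone, as a mutant labelled PA, the mutation being not explained in the labels, and as wild type (WT). The growth protocol speaks of lentiviral infection with drug selection, while the promoter of the tagged gene, the oxygen level and the time in hypoxia are not given in the sources used here. Each of the 8 groups had 2 immunoprecipitated samples and 1 deposited list, with no values per replicate and no read depth. No difference below has therefore a replicate check, no test was made, and a peak missing from a list may be one that the depth did not allow to be called. Fold enrichment is the authors' own value for a peak over background and is used only to rank peaks within their own list.

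Carbonic anhydrases interconvert carbon dioxide and water with bicarbonate and a proton. CA9 is among the best known targets of the hypoxia-inducible factors (HIF), which bind a short core found in hypoxia response elements, and CA12 is known in luminal breast cancer as a gene regulated by the oestrogen receptor. MCT1 and MCT4 carry lactate together with a proton. MCT1 is widely expressed, and MCT4 is the exporter of glycolytic cells and is also known to be induced by HIF.

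Promoter sequences for 3 of the 4 members were taken from RefSeq (GRCh38.p14), each 300 bases long with 250 before and 50 after the annotated start. The promoters below are shown because a peak discussed later lies on each of them. Capitals mark the letters ACGTG or GCGTG (the core of hypoxia response elements) on either strand, so that CACGT and CACGC are matches on the opposite strand. Of 34961 promoters of the same length, 21.4% held ACGTG, 36.6% held GCGTG and 48.5% held either. A match is a description of the letters and does not show that a factor binds there.
CA9 promoter, chr9:35673678-35673977, plus strand: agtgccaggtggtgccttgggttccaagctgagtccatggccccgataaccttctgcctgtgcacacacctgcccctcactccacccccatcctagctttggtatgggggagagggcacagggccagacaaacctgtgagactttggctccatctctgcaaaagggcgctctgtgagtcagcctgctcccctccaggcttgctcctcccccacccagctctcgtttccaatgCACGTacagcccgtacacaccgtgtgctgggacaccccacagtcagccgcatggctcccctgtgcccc
CA12 promoter, chr15:63381797-63382096, minus strand: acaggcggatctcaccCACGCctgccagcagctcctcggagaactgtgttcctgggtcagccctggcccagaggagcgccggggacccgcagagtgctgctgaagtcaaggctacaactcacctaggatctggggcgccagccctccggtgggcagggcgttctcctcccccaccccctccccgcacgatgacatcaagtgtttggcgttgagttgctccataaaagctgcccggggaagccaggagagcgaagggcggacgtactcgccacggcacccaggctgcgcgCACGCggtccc
SLC16A3 promoter at the second start, chr17:82228792-82229091, plus strand: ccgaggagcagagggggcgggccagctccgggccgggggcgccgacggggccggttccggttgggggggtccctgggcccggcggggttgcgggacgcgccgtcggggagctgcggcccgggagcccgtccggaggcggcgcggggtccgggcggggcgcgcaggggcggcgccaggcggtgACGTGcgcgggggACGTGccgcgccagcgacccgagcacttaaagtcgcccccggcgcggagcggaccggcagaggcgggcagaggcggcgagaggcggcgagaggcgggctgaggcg
SLC16A3 promoter at the fourth start, chr17:82234649-82234948, plus strand: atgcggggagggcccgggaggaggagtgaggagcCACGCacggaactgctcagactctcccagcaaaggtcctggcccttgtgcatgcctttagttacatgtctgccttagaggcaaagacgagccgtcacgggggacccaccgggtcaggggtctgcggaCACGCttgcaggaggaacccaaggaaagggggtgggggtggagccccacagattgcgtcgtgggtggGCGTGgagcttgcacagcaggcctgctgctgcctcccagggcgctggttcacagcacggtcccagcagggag
CA9 held 1 match, ACGTG on the opposite strand, at positions -18 to -14 from its start (chr9:35673910-35673914). CA12 held 2 matches to GCGTG. The second SLC16A3 start had ACGTG at -68 to -64 and again at -55 to -51, the fourth start had 3 matches to GCGTG, and the first and the third start had 0 matches. The fifth start, not printed, had 1 match to GCGTG at -165 to -161.

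H3K27ac peaks lay at all 4 genes in hypoxia and in normoxia, against 76.2% of all protein-coding genes in hypoxia and 75.1% in normoxia. ZHX2 peaks lay at 3 of the 4 genes in hypoxia and at the same 3, namely CA12, SLC16A1 and SLC16A3, in normoxia. The share of all genes was 68.9% in hypoxia and 42.5% in normoxia. CTCF peaks lay at these 3 genes in both conditions, against 83.9% of all genes in hypoxia and 86% in normoxia. Flag intervals lay at these 3 genes for PA and at all 4 for WT, where the shares of all genes were 60% for PA and 69.8% for WT. CA9 was thus the member with no endogenous ZHX2 peak and no CTCF peak in either condition. This holds for 5 kb. With 10 kb added CA9 had 2 ZHX2 peaks in hypoxia and 1 in normoxia, 1 CTCF peak in each condition and 2 PA Flag intervals. Each of these lists then reached all 4 members. The shares of all genes with 10 kb added are not given here, so that count has no share to be set against.

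For ZHX2, CTCF and H3K27ac, none of the 4 genes was in the list of one condition alone in these windows. With the gene span alone, or with 1 kb added, CA9 had 1 H3K27ac peak in hypoxia and 0 in normoxia, and so was in the hypoxia list alone. Shares of all genes for these narrower windows are not given here. With 5 kb added, of all genes, 28.7% had ZHX2 in hypoxia alone and 2.29% in normoxia alone. For CTCF these shares were 1.05% in hypoxia alone and 3.17% in normoxia alone, and for H3K27ac 1.84% and 0.706%. Single peaks did differ. The 4 windows held 14 ZHX2 peaks in hypoxia and 9 in normoxia, 9 CTCF peaks in each, 19 H3K27ac peaks in hypoxia and 15 in normoxia, and 7 Flag intervals for PA and 12 for WT. The whole lists held 32343 ZHX2 peaks in hypoxia and 14586 in normoxia, 77334 and 88248 CTCF peaks, and 46713 and 42586 H3K27ac peaks. The Flag lists held 16019 PA and 31278 WT intervals. No ZHX2 peak of the members was in the normoxia list only, while 15.3% of all genes had such a peak.

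**Figure D1:**
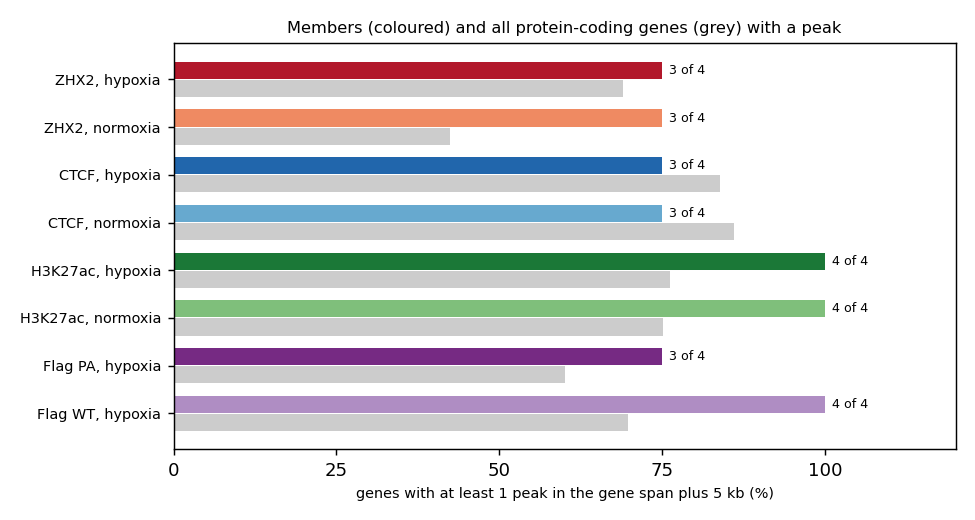
Share of genes with at least 1 peak in the gene span plus 5 kb (x axis, percent) in each of the 8 peak lists (y axis), for the 4 members (coloured bars) and for all 19817 protein-coding genes (grey bars). ZHX2 and CTCF peaks lay at 3 of 4 members in both conditions, and the WT Flag list touched all 4.

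CA9, a carbonic anhydrase with its active site outside the cell, carried an H3K27ac peak over its start in hypoxia and none there in normoxia. CA9 lies at chr9:35673928-35681159. The hypoxia peak (chr9:35673381-35674254, 874 bp) ran from -547 to 326 bases around the start and covered the promoter printed above with its ACGTG match. Its fold was 3.50 with a −log10 q of 8.35, and 35.8% of the hypoxia H3K27ac list had a lower fold, so it was a modest peak of its list and is lost when the upper 50% of the list by score is kept. A hypoxia-only H3K27ac peak, one with no overlap in the normoxia list, lay in the window of 24.1% of all genes. At the 300-base promoters, H3K27ac present in hypoxia and absent in normoxia was found for 188 of 15811 genes with a promoter sequence (1.19%), and the reverse for 64 (0.405%). Here and below, a gene with several promoters counted as touched when any of them was, while CA9 has 1.

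The WT Flag list had 1 interval at CA9 (chr9:35673321-35674253, 933 bp), on nearly the same bases as that acetylation peak, with 873 bp in common. The PA Flag list had none in the CA9 window, and 10.4% of all genes were, like CA9, in the WT list and not in the PA list, against 0.5% in the PA list and not in the WT list. WT Flag without PA Flag was found at the promoters of 7.92% of genes, and together with H3K27ac in hypoxia alone at 24 genes (0.152%), CA9 included. Of these, 10 (0.0632%) also lacked ZHX2 and CTCF on the promoter in both conditions. Both combinations follow the pattern seen at CA9, so CA9 is in them by construction. Their small shares do not measure how unusual CA9 is. Each mark taken singly, H3K27ac touched the promoters of 64.8% of the 15811 genes in hypoxia and 64% in normoxia, and Flag those of 50.7% for PA and 58.2% for WT. ZHX2 touched 52.3% in hypoxia and 22.9% in normoxia, and CTCF touched 48.4% in hypoxia and 49.7% in normoxia. The nearest endogenous ZHX2 peak in hypoxia lay 8.41 kb past the other end of the gene, inside TPM2, a tropomyosin gene, with a fold of 3.41, and the nearest in normoxia lay 8.54 kb away, also at TPM2. The nearest CTCF peaks lay at ARHGEF39, 8.33 kb away in hypoxia (fold 33.2) and 8.37 kb away in normoxia (fold 41.6). A second acetylated site upstream of CA9 was present in both conditions. It ended 4.02 kb before the gene in hypoxia (957 bp, fold 3.89) and 4.44 kb before it in normoxia (471 bp, fold 3.96).

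SLC16A1 was marked at the same place in every list, the annotated end that borders SLC16A1-AS1, a long noncoding RNA gene. The gene lies at chr1:112911847-112956196. Its only ZHX2 peak spanned chr1:112955859-112956592 in hypoxia, with a fold of 7.31 above that of 96.4% of the list. In normoxia it spanned chr1:112955861-112956391, with a fold of 7.64 above that of 96.1% of the list. The 2 summits were 10 bp apart, so this was a strong ZHX2 site of both lists. A peak at this end cannot be given to SLC16A1 rather than to SLC16A1-AS1, since the peaks reach across or close to both annotated ends.

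CTCF lay on the same end of SLC16A1, with a fold of 18.1 in hypoxia (49.1% of its list lower) and 33.9 in normoxia (60.8% lower) and summits 4 bp apart. The ZHX2 summit was 285 bp from the CTCF summit in hypoxia and 291 bp in normoxia. A second CTCF peak lay inside the gene, over the pseudogene AKR7A2P1, with a fold of 7.91 in hypoxia and 12.1 in normoxia. H3K27ac at the end was a single narrow peak of 934 bp in hypoxia (fold 4.32) and of 934 bp in normoxia (fold 4.15), shifted by 2 bases. The Flag lists had one interval of 1961 bp there for PA and the same interval for WT, and WT had a further interval of 467 bp (chr1:112957517-112957983) inside SLC16A1-AS1.

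**Figure D2:**
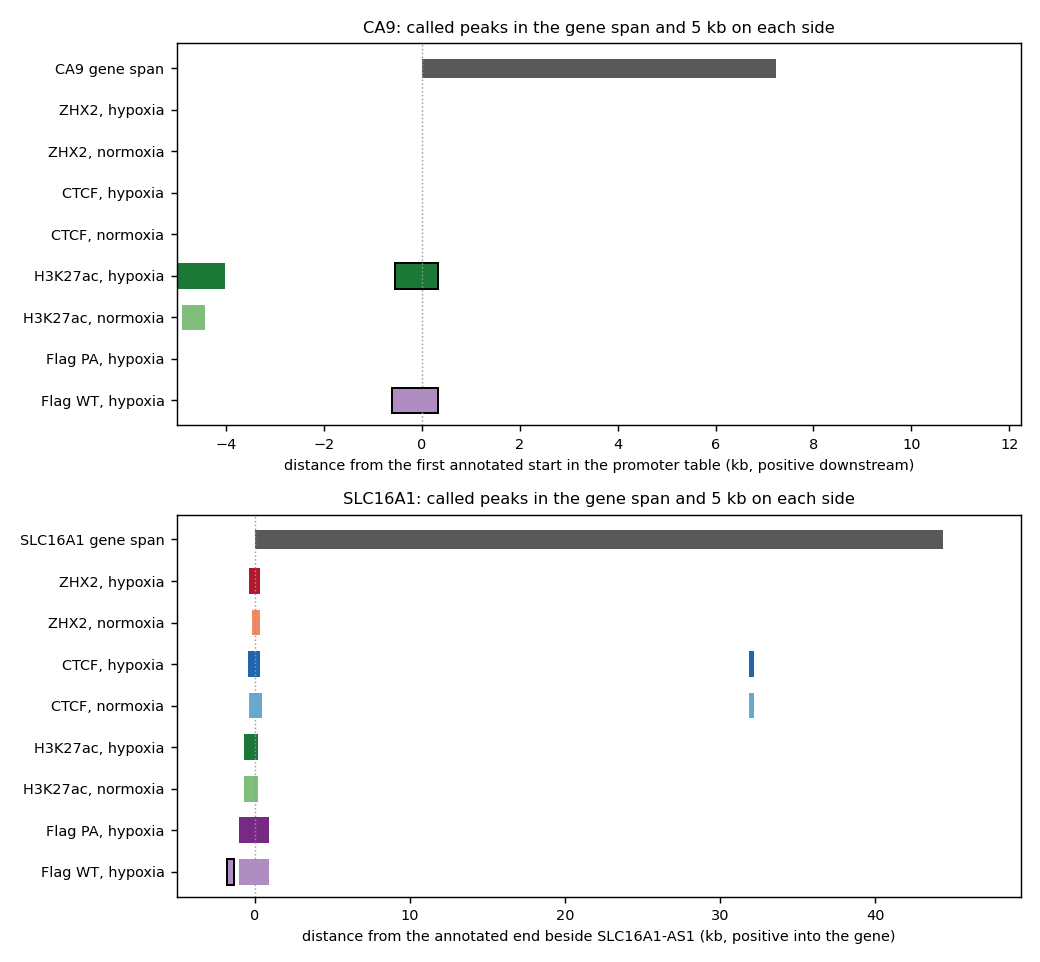
Peaks of the 8 lists (rows) along the windows of CA9 (top) and SLC16A1 (bottom), with distance in kb on the x axis, the gene span as the dark bar and black edges on peaks with no overlap in the partner list (hypoxia against normoxia, PA against WT); peaks are clipped at the window and very short ones widened to be visible. At CA9 only the hypoxia H3K27ac list and the WT Flag list have a peak over the start, while at SLC16A1 all 8 lists do.

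CA12, which carries out the same reaction as CA9 at the cell surface, kept its ZHX2 and CTCF sites near the start in both conditions. The gene is at chr15:63321378-63381846 and is read from the higher coordinate. Its 1 ZHX2 peak had its summit 2215 bp inside the gene in hypoxia and 2257 bp in normoxia, away from the promoter. In hypoxia it spanned 323 bp (chr15:63379451-63379773, fold 4.28, 77.6% of the list lower), and in normoxia 205 bp (chr15:63379491-63379695, fold 3.62, 61.5% lower), with summits 42 bp apart. With 10 kb added CA12 had 2 ZHX2 peaks in hypoxia and 1 in normoxia. The added peak (chr15:63387636-63388081, fold 2.89) lay 5.79 kb upstream of the gene and was in the hypoxia list only. CTCF lay on the promoter itself, with a fold of 6.16 in hypoxia (21.5% of the list lower) and 3.15 in normoxia (0.478% lower), so both were weak peaks of their lists. The normoxia list had a second weak CTCF peak near the far end of the gene (chr15:63329601-63329890, fold 5.59) that had no partner in hypoxia. A normoxia-only CTCF peak lay in the window of 35.4% of all genes.

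H3K27ac covered 27624 bp of the 70.5 kb CA12 window in hypoxia (39.2%) and 29995 bp in normoxia (42.6%). In hypoxia the start lay in a domain of 12163 bp (fold 15.6), and a second domain of 7269 bp (fold 17.8) followed upstream after a gap of 2262 bp. In normoxia both lay in 1 domain of 25681 bp (fold 16.4), wider than 99.7% of that list and reaching past the window. The body of the gene held 12 further hypoxia peaks with folds of 2.67 to 3.55 and 10 further normoxia peaks with folds of 2.59 to 4.08. Of these, 2 were hypoxia-only and 1 was normoxia-only, the last a kind found at 11.9% of all genes. As many H3K27ac peaks as CA12 were found at 0.903% of genes in hypoxia, where it had 14, and at 1.32% in normoxia, where it had 11. These counts are not scaled for the length of the window. Per 10 kb CA12 had 1.99 peaks in hypoxia and 1.56 in normoxia, and the share of all genes reaching that density is not given here. Both the ZHX2 peak and the promoter CTCF peak fell within a Flag interval of 3399 bp (chr15:63379053-63382451) that was in the PA list and, with the same ends, in the WT list. A Flag interval of 1025 bp further inside the gene was also in both, and a WT interval of 344 bp (chr15:63373562-63373905) was not in the PA list.

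SLC16A3 had the most ZHX2 peaks of the 4 genes, with 12 in hypoxia and 7 in normoxia in a window of 32.2 kb. As many peaks were found at 0.384% of all genes in hypoxia and at 0.479% in normoxia. Per 10 kb of window that was 3.73 peaks in hypoxia and 2.18 in normoxia, a density reached by 0.459% of all genes in hypoxia and by 0.913% in normoxia. SLC16A3 lies at chr17:82217934-82240086, and its far end overlaps CSNK1D, the gene of a casein kinase. It is read from the lower coordinate. The first start with a promoter sequence is at chr17:82228435, inside this span and not at its low end, and starts are numbered from it. Of the 12 hypoxia peaks, 8 touched the SLC16A3 span, 2 lay before it and 2 lay past it inside CSNK1D. In normoxia 6 of the 7 touched the span and 1 lay before it. The first peak of each list crossed the outer border of the window and reached into the neighbouring gene CCDC57. In hypoxia this peak had a fold of 6.70, above that of 95.2% of the list. It is counted here by the window alone and cannot be given to SLC16A3 rather than to CCDC57.

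Each of the 7 normoxia ZHX2 peaks at SLC16A3 overlapped a hypoxia peak, and 5 of the 12 hypoxia peaks had no partner in normoxia. Over the whole lists, 72.6% of 32343 hypoxia ZHX2 peaks and 37.4% of 14586 normoxia ZHX2 peaks had no partner. With 5 kb added, only SLC16A3 of the 4 genes had such a hypoxia-only ZHX2 peak, while 54.4% of all genes had at least 1. Another lay just outside the CA12 window, 5.79 kb upstream of that gene. The 5 at SLC16A3 were middling peaks of their list. They had folds of 3.31 to 4.08 (49.5 to 73.3% of the list lower) and widths of 224 to 635 bp. The shared peaks included the strongest, with hypoxia folds of 2.70 to 7.35 and normoxia folds of 2.86 to 5.61. With the −log10 q set to 5 or more, the window held 11 peaks in hypoxia and 4 in normoxia.

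The strongest ZHX2 peak at SLC16A3 lay over its first and second starts. It spanned chr17:82228199-82229545 in hypoxia (1347 bp, fold 7.35, 96.5% of the list lower) and chr17:82227996-82229535 in normoxia (1540 bp, fold 5.61, 90.9% lower). Its hypoxia summit lay 24 bp from the nearer of the 2 ACGTG matches printed above, and its normoxia summit 115 bp from the nearer. A weak CTCF peak (chr17:82228870-82229198, fold 4.24, 3.64% of the list lower) lay there in normoxia and not in hypoxia. The summit of this CTCF peak lay 20 bp from the nearer ACGTG match, so closeness to the match was not particular to ZHX2. Neither Flag list had an interval on these 2 starts. At CA9 the WT Flag list had an interval on the start and endogenous ZHX2 had none. The promoter at the fourth start carried a hypoxia-only ZHX2 peak (chr17:82234583-82235093, 511 bp, fold 3.71), whose summit lay 23 bp from the nearest GCGTG match.

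CTCF at SLC16A3 was led by a peak near MIR6787, a microRNA gene inside the transporter gene. That peak had a fold of 185.8 in hypoxia (93.9% of the list lower) and 343.7 in normoxia (98.6% lower), with summits 3 bp apart. CTCF peaks numbered 6 in hypoxia and 5 in normoxia, of which 4 in each list were shared. The 2 hypoxia-only CTCF peaks (folds 3.84 and 4.18) and the normoxia-only one had 7.12% or less of their lists below them. A hypoxia-only CTCF peak lay in the window of 17.6% of all genes.

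Of the 7 shared hypoxia ZHX2 peaks at SLC16A3, 6 overlapped a CTCF peak of the same condition, while of the 5 hypoxia-only peaks 0 did. Over the whole hypoxia ZHX2 list 62.4% of shared and 39.3% of hypoxia-only peaks overlapped CTCF. The ZHX2 and CTCF summits were 42 bp apart at the peak near MIR6787 in hypoxia and 51 bp apart in normoxia. Another ZHX2 peak overlapping that CTCF peak had its summit 942 bp away in hypoxia and 933 bp away in normoxia. Over all such overlaps at SLC16A3, the summits were 16 to 957 bp apart in hypoxia and 36 to 1056 bp apart in normoxia. All 12 ZHX2 peaks in hypoxia and all 7 in normoxia overlapped H3K27ac.

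H3K27ac formed 2 domains at SLC16A3 in both conditions. The domain over the starts spanned 17038 bp in hypoxia (fold 17.5) and 15371 bp in normoxia (fold 15.3), and it began 463 bp further upstream in hypoxia. The promoter of the first start was therefore touched in hypoxia and not in normoxia, by the edge of the domain alone. The other domain ran across the low end of the gene span and reached back into the neighbouring gene CCDC57, with 7585 bp in hypoxia (fold 12.8) and 6772 bp in normoxia (fold 15.3).

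The Flag lists split at SLC16A3. Both held an interval of 6134 bp (chr17:82233786-82239919) over the last starts and the strongest CTCF site, wider than 99.2% of the PA list and 99.6% of the WT list, and both held one of 607 bp. The PA list alone had intervals of 1222 bp (chr17:82229881-82231102) and 630 bp (chr17:82233020-82233649) inside the gene. At least 1 such PA-only interval was found at 3.75% of all genes, and 2 or more at 60 genes (0.303%). The WT list alone had 4 intervals of 224 to 914 bp, all before the gene. A WT-only interval lay in the windows of all 4 members, against 37.9% of all genes, and touched the gene span itself at 2, CA9 and CA12.

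**Figure D3:**
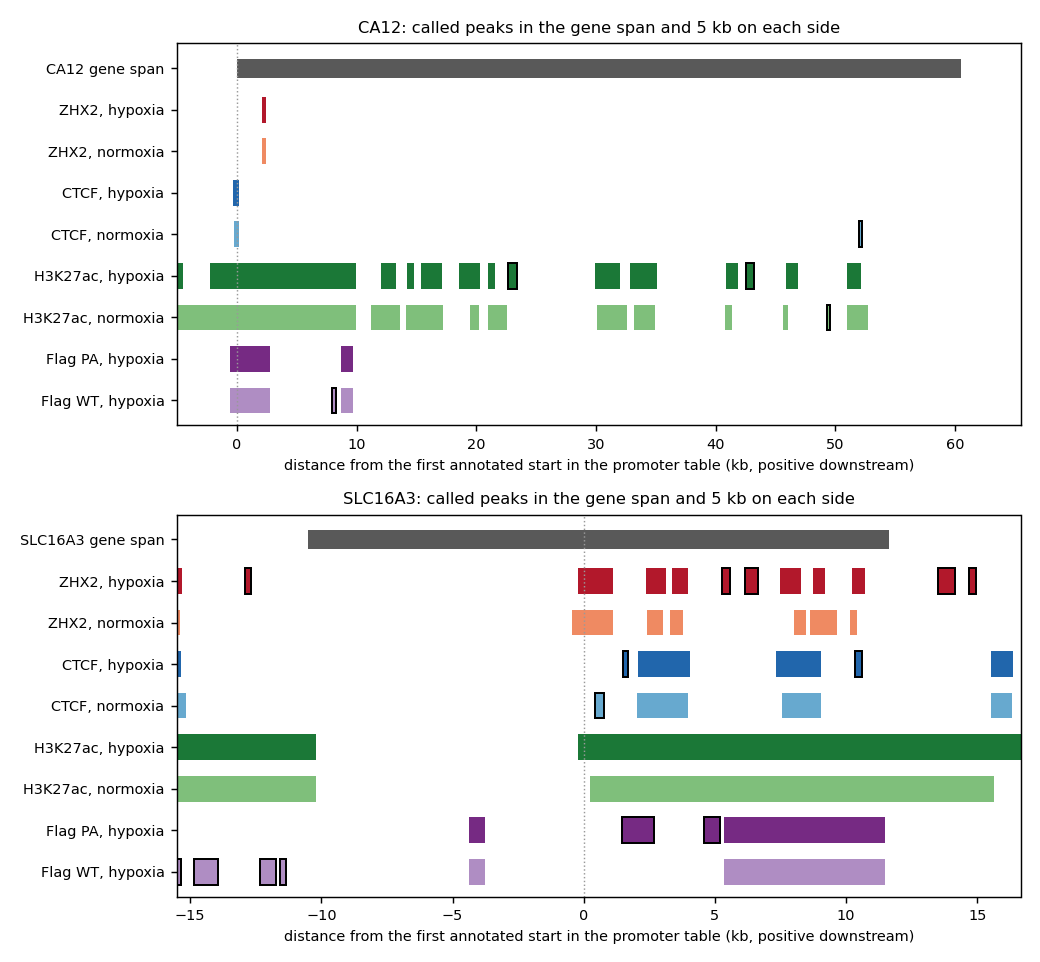
Peaks of the 8 lists (rows) along the windows of CA12 (top) and SLC16A3 (bottom), with distance from the first start in the promoter table on the x axis in kb, the gene span as the dark bar and black edges on peaks with no overlap in the partner list; peaks are clipped at the window and very short ones widened to be visible. SLC16A3 holds 12 ZHX2 peaks in hypoxia and 7 in normoxia, and CA12 holds 1 in each.

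The Flag lists need to be read with one property of their construction. All 15163 intervals that overlap between them have the same first and last base in both lists, 94.7% of the 16019 PA intervals and 48.5% of the 31278 WT intervals. In the ZHX2 lists 0 peaks had the same ends in both conditions. The Flag lists thus share a set of regions, and a call of PA-only or WT-only at a member is membership of a list, with no height to compare.

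Read over the 4 genes together, 7 of 14 hypoxia and 7 of 9 normoxia ZHX2 peaks overlapped CTCF of the same condition, against 45.6% of the whole hypoxia list and 43.6% of the whole normoxia list. All 14 hypoxia and all 9 normoxia peaks overlapped H3K27ac, against 72.9% and 56.7% of those lists. Since SLC16A3 supplied 12 of the 14 and 7 of the 9, these counts mostly describe 1 gene. Hypoxia ZHX2 peaks were overlapped by 4 of the 7 PA and 4 of the 12 WT intervals, against 67.2% of the PA list and 44.9% of the WT list.

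**Figure D4:**
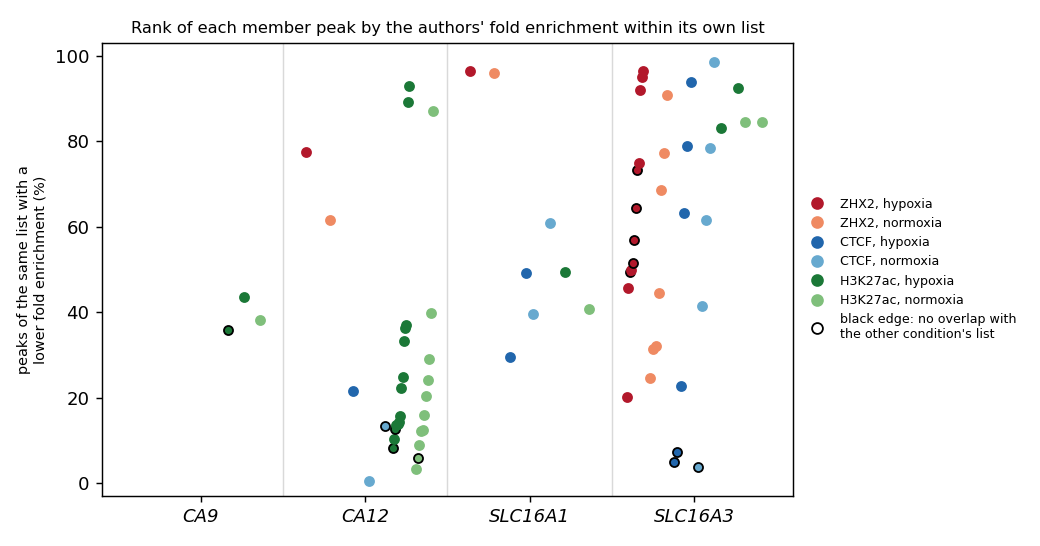
Percent of peaks of the same list that have a lower authors' fold enrichment (y axis) for each peak in the window of the 4 genes (x axis), coloured by list, with black edges on peaks that have no overlap in the other condition's list. The SLC16A1 ZHX2 peaks stand at 96.4% in hypoxia and 96.1% in normoxia, and the CTCF peaks with no partner stand at 13.3% or lower.

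Other genes of acid handling were counted in the same way, from 3 lists. Of 13 other carbonic anhydrases, 7 had ZHX2 in hypoxia, against 68.9% of all genes, and 1 had it in normoxia, against 42.5%. The hypoxia list alone held 6 of the 13, against 28.7% of all genes. The best folds in hypoxia belonged to CA5B (5.36) and CA5A (3.89), mitochondrial enzymes, CA11 (4.97), a related protein without catalytic activity, and CA14 (3.22), a membrane enzyme. The other carbonic anhydrases had a median ZHX2 count of 1 in hypoxia and of 0 in normoxia, equal to that of all genes. H3K27ac lay at 6 of the 13 in hypoxia, against 76.2% of all genes, and at 6 in normoxia, against 75.1%.

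Among 12 other members of the SLC16 family, 10 had ZHX2 in hypoxia (68.9% of all genes) and 8 had it in normoxia (42.5%). SLC16A11 and SLC16A13, both on chromosome 17, had the same best normoxia folds for ZHX2 (3.04) and H3K27ac (16.0). The same peak may therefore count for both genes. The hypoxia list alone held 2 of the 12 (28.7% of all genes). Their median was 1 peak in both conditions, where all genes had 1 in hypoxia and 0 in normoxia. SLC16A6 led in hypoxia with a fold of 5.47, followed by SLC16A8 (4.26), SLC16A5 (3.91) and SLC16A14 (3.80). SLC16A8, the lactate carrier MCT3 of the retinal pigment epithelium, had a normoxia ZHX2 peak of fold 8.61, above 97.2% of that list, and no H3K27ac or CTCF peak in either condition.

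Among 8 partners and other acid or bicarbonate carriers, 6 had ZHX2 in hypoxia (68.9% of all genes) and 2 had it in normoxia (42.5%). The hypoxia list alone held 5 of the 8 (28.7% of all genes), BSG, SLC4A2, HVCN1 and LDHA among them, and EMB was in the normoxia list alone, as were 2.29% of all genes. SLC4A2, an anion exchanger, had 3 peaks in hypoxia with a best fold of 5.94 and 0 in normoxia. SLC4A7, a sodium-bicarbonate cotransporter, had 7 peaks in hypoxia (best fold 5.65) and 2 in normoxia (best fold 2.90). BSG, the chaperone that brings MCT1 and MCT4 to the membrane, had 6 in hypoxia (best fold 5.13) and 0 in normoxia.

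The cell line was checked by H3K27ac at marker genes. All 8 luminal markers held a peak in hypoxia and 7 in normoxia, with a median best fold of 27.5 in hypoxia and 26.8 in normoxia. TFF1 was the luminal marker without one in normoxia. Of 4 basal or myoepithelial markers 3 held one in both conditions (median best fold 14.5 in hypoxia and 16.2 in normoxia), KRT5 being without any. All 4 immune and stromal markers held one as well, with median best folds of 11.0 in hypoxia and 9.27 in normoxia. The presence of a peak within 5 kb thus did not by itself separate cell types. Best folds of luminal and basal or myoepithelial markers overlapped too. They ran from 3.22 to 54.2 for luminal and from 5.74 to 22.5 for basal or myoepithelial markers in hypoxia. In normoxia the ranges were 20.5 to 49.9 and 6.78 to 25.8.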

How the data were processed

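The 28 samples were grouped by title and antibody label into 8 immunoprecipitated groups of 2 and 12 samples without antibody, which were not analysed here. Of these 12, 4 are titled Flag. Cutadapt, Bowtie2, MACS2 and the build GRCh38 (hg38) are named without versions, per the submitters' processing notes. Whether samples were pooled, how inputs were used and the read depth are not given in the sources used here. The peak score, the fold (a ratio over background) and the −log10 q were deposited by the authors. The Flag lists as deposited hold positions alone.

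Only chromosomes 1 to 22 and X were used, BED starts were counted from 1, and overlap was computed in Python 3.11.15 with pandas 2.3.3 and numpy 2.4.6, tested on simulated data. Gene positions came from RefSeq (GRCh38.p14), with the longest sorted run of each chromosome taken as the assembled chromosome. Strand and starts came from the promoter table (SLC16A1 was placed by its end beside SLC16A1-AS1), and exons were not analysed here. The members and gene lists were chosen with earlier results of these data known. All members were described, and of each pathway list the 4 genes with the highest hypoxia ZHX2 fold, except where a gene is not reported here. HVCN1, LDHA, EMB, KRT5, TFF1 and the further values of SLC16A8 were named after their values were seen.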

Additional observations from a re-analysis of the deposited data

How the results depend on the processing

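With 1 list per group, leaving out a replicate was not possible, and no paired analysis was possible because the lists carry no replicate values. The alternatives were other windows (the span alone, with 1 kb or with 10 kb), midpoints inside the window, a −log10 q of at least 5 (not for the Flag lists, which have no q), the upper 50% of each list (by score, or by width for Flag), and other overlap rules. Of 184 peak counts by gene and list, 39 moved beyond 1.5 times, among them 17 that fell with the upper 50% of a list and 11 that rose with 10 kb. With the upper 50%, a CTCF peak in hypoxia remained at 1 member and in normoxia at 2, and H3K27ac at 2 members in hypoxia and 2 in normoxia, the CA9 start peak being lost. Shares of all genes are not given for the upper 50%. CTCF peaks of one condition alone then numbered 0 in hypoxia and 0 in normoxia, H3K27ac peaks of one condition alone 0 and 0, PA-only intervals 0 and WT-only intervals 2. When sharing required midpoints within 250 bp, 16 H3K27ac peaks were hypoxia-only, 12 were normoxia-only and 1 ZHX2 peak was normoxia-only. For broad domains this rule measures length as much as position.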

Other observations

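Of the 24 genes whose promoter had H3K27ac in hypoxia alone and Flag for WT alone, 10 (0.0632% of 15811 genes) had, like CA9, no endogenous ZHX2 and no CTCF peak on that promoter in either condition. They were CA9, FBXO41, GPC4, GPR78, MOCS1, PTAFR, RAB9B, RASGRP3, RDH16 and TMEM95, listed after the CA9 values were seen. The pattern is that of CA9 itself, so its place among them is by construction.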
